A study of Mus musculus with 12 samples.

Results

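The 31 genes described here encode receptors for GABA, the enzymes and carriers that make, load and clear it, the chloride carriers that set the direction of its current, 2 proteins of the inhibitory postsynapse, and markers of inhibitory interneurons. They were taken as the rows of the deposited gene table whose RefSeq transcripts map to the listed mouse symbols, 31 of 23382 rows. All 31 passed the filter on low counts that left 15802 genes for testing. The rows were matched by symbol, and the list of symbols was chosen with earlier results of these data known.

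Total RNA of mouse hippocampus was sequenced after removal of ribosomal RNA, in 12 libraries that form 4 groups of 3. Control mice received vehicle or delta-9-tetrahydrocannabinol (THC), the psychoactive compound of cannabis, and mice labelled DISC1 mutant (aDN-DISC1) received vehicle or THC. All were on a C57BL/6 background. The series title places THC in adolescence, memory in adulthood and the genetic vulnerability in astrocytes, while dose, age, sex, the driver of the transgene and the number of animals per library are not given in the sources used here. Control libraries carry no genotype entry and were placed by their titles.

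GABA is the main inhibitory transmitter of the hippocampus. It is made from glutamate by the 2 glutamate decarboxylases, loaded into vesicles, and acts on GABA-A receptors, which are chloride channels built from 5 subunits, and on GABA-B receptors, which signal through G proteins. Astrocytes take up part of the released GABA, and chloride inside the neuron, which an exporter keeps low and an importer raises, decides how strongly the channel inhibits. Interneurons are a minority of hippocampal neurons and are divided by the peptides and calcium-binding proteins they contain. Projection neurons of the neighbouring striatum are GABAergic too, so the enzymes and the vesicular carrier are not particular to interneurons.

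Some of the GABA-A receptor genes lie in genomic clusters. On chromosome 5 of GRCm38.p6 they are Gabrg1 (70751047 to 70842617), Gabra2 (70958392 to 71095849), Gabra4 (71569734 to 71658308) and Gabrb1 (71657921 to 72149572), and on chromosome 7 Gabrg3 (56716463 to 57387215) and Gabra5 (57407669 to 57591016). The spans of Gabra4 and Gabrb1 share 388 bases at their starts on opposite strands. In GENCODE, 6 members have exons that overlap a gene on the opposite strand (Gabra4, Gabra5, Gabrb1, Slc32a1, Gphn and Reln), and whether counting used strand is not given, so their counts may hold reads of the partner. Lhx6 has exons that overlap Gm27953 on the same strand, so its counts may hold reads of that gene.

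Upstream sequence is shown for Gabra2, which had the smallest p-value of the members, for Gad1, Gad2 and Slc32a1, which were highest together in 1 library, and for Sst, a cAMP-responsive gene in textbooks. The letters come from RefSeq windows of GRCm38.p6 that end at the annotated start, and run 5′ to 3′ on the gene's strand. Those of Gabra2, Gad1, Gad2 and Slc32a1 are cut to the stretch outside GENCODE exons, while the 30 bases of Sst lie inside a GENCODE exon of Sst, which covers 114 of the 250 bases of its window. Capitals mark GGGCGG (the GC box) in Gabra2, TATAAA (the TATA box, here read on the other strand) in Gad1 and TGACGTCA (the cAMP response element) in Sst.
Gabra2 (chr5:71095850-71096099, minus strand): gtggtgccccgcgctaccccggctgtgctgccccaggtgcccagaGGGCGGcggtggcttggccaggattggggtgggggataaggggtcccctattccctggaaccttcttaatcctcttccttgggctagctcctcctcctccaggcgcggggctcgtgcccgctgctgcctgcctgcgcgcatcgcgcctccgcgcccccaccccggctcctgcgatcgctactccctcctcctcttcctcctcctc
Gad1 (chr2:70561879-70562041, plus strand): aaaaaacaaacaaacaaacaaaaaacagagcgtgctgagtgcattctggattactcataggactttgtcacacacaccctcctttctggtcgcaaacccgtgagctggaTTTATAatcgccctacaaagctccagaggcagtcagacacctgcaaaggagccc
Gad2 (chr2:22622077-22622204, plus strand): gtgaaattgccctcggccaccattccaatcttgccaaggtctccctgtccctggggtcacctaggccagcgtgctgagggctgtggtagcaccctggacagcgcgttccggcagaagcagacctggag
Slc32a1 (chr2:158610724-158610757, plus strand): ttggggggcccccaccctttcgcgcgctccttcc
Sst (chr16:23890874-23890903, minus strand, around the element): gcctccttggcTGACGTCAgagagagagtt

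A window of 250 upstream bases was found for 26 of the 31 members, with 35 windows in all because some genes have several starts. Both strands were searched for 5 letter strings. GGGCGG was in 16 of the 35 windows (45.7%) and in 32.7% of the 32851 windows of all genes, and TATAAA in 14.3% and 12.4%. CACGTG (the E-box) was in 3 member windows, those of Cck, Reln and Slc12a5, a share of 8.57% beside 6.02%. TGACGTCA was in that of Sst alone among members, beginning at base -48, and in 1.55% of all windows, and TAATTA, a homeodomain core, in that of Gabrg1 alone and in 4.84% of all windows. The 250 bases upstream of Gabra2 were 70% G or C, where all windows averaged 53.2%. These are matches of letters and were not tested against binding.

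Across the 31 genes the level per transcript length, as CPM per kilobase of transcript, spanned from Cck to Gabrg3. CPM is the expected count scaled to the library total of the tested genes, adjusted by TMM normalization. Lengths were those of the GENCODE transcripts matched to the counted RefSeq accessions, so an untranslated end that differs between annotations moves the level of a gene but not its comparison between groups. Cck, a peptide of basket cells that pyramidal cells also express, had the highest mean, 330 CPM per kilobase over 12 libraries with a range of 200.3 to 392. It stood clear of the gene after it, Gabbr1, at 114 to 148. The ranges of nearly all neighbours in this order overlapped, and the exceptions beside Cck were Gabra2 over Gabrb1 and Sncg over Gabrg3.

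**Figure D1:**
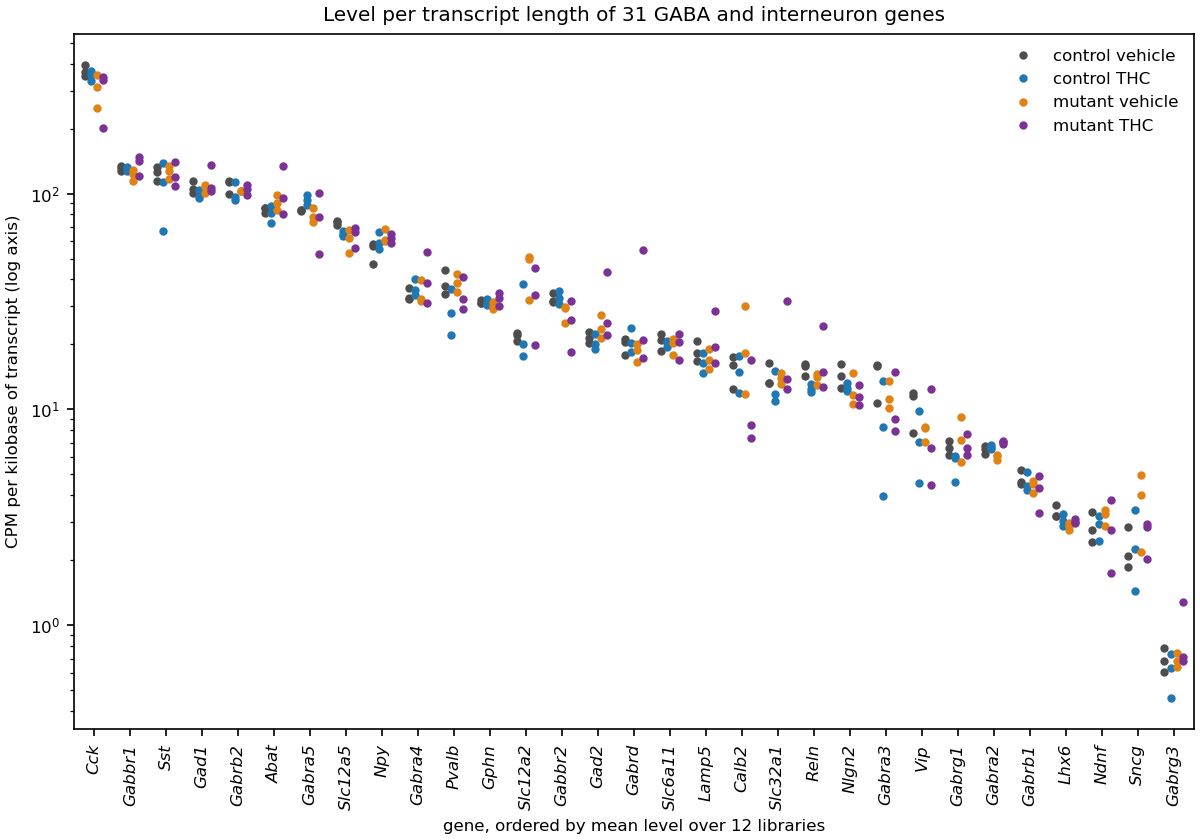
Level of each of the 31 genes in CPM per kilobase of transcript (log axis), ordered by the mean over 12 libraries, with 1 point per library coloured by group. Cck lies between 200.3 and 392 and Gabrg3 between 0.462 and 1.28, while neighbouring genes mostly overlap.

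Among GABA-A receptor subunits on the per-kilobase scale, the beta subunit gene Gabrb2 was highest with a mean of 104, followed by Gabra5, the alpha subunit of extrasynaptic receptors on pyramidal cells, at 83.3. Gabra4, which pairs with the delta subunit in dentate granule cells, was at 36.6 and Gabrd itself at 22.6. Gabra3 was at 11.3, Gabrg1 at 6.595, Gabra2 at 6.56, Gabrb1 at 4.50 and Gabrg3 at 0.722 CPM per kilobase. Of the GABA-B receptor genes, Gabbr1, which binds the ligand, was at 130 and Gabbr2, which couples to the G protein, at 29.8. The GABA-synthesising enzymes were at 106 for Gad1 and 24.1 for Gad2, and Abat, the GABA-degrading transaminase, was at 89.9. Slc32a1, the vesicular GABA carrier, was at 15.1 and Slc6a11, a plasma membrane GABA carrier found on astrocytes, at 20.1. The chloride exporter gene Slc12a5 (KCC2) was at 65.8 and the importer gene Slc12a2 (NKCC1) at 31.1. Gphn, the scaffold gephyrin, and Nlgn2, the adhesion protein neuroligin of inhibitory synapses, were at 31.3 and 12.8.

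Interneuron markers on the same scale followed the order Cck, Sst (120), Npy (59.98), Pvalb (35.0), Lamp5 (18.4), Calb2 (15.3), Reln (14.8), Vip (8.31), Lhx6 (3.08), Ndnf (2.92) and Sncg (2.74). Sst and Npy are peptides of dendrite-targeting cells, Pvalb a calcium buffer of fast-spiking cells, and Lhx6 a transcription factor of cells born in the medial ganglionic eminence. In bulk RNA fewer cells of a type and less RNA per cell cannot be told apart.

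The libraries held 33165903 to 41389957 expected counts each. Sncg, the lowest member in CPM, was at 1.23 to 4.24 CPM, so all 31 were measured well above single counts. The marker lists of hippocampal neurons were present in every library, with the summed level of 10 granule cell genes at 382 to 957 CPM. Those of 9 CA1 genes and 10 CA3 genes were at 423 to 875 CPM and 295 to 497 CPM. RNA of tissue next to the hippocampus stood out in some libraries. All 17 striatal projection neuron genes were highest in mutant THC 3, where their sum was 5926 CPM. It was 783 CPM in mutant vehicle 3 and 292 to 347 CPM in the other 10 libraries, and the receptor genes Adora2a and Drd1 were at 192 and 302 CPM in mutant THC 3 against 0.967 to 1.78 and 6.63 to 11.5 CPM in those 10. Ttr, a choroid plexus gene, was above 1000 CPM in 6 libraries, control THC 2, all 3 mutant vehicle libraries and mutant THC 1 and 3. All 10 oligodendrocyte genes and all 16 choroid plexus genes were higher in every mutant vehicle library than in every control vehicle library, beside 15.3% of all genes. The oligodendrocyte sums were 6512 to 7421 CPM in mutant vehicle and 4705 to 5968 CPM in control vehicle. Whether this oligodendrocyte RNA came from inside or outside the hippocampus was not tested. Library numbers in the labels are 6 to 11 for vehicle and 1 to 5 and 12 for THC, so this order and the treatment cannot be told apart.

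No member passed the threshold (adjusted p under 0.05, edgeR quasi-likelihood test with Benjamini-Hochberg adjustment over 15802 genes) in any comparison. Called shares of all genes were 0% for THC in control mice, for THC in mutant mice and for the interaction, and 0.00633%, which is 1 gene, for genotype under vehicle and for genotype under THC. At an unadjusted p under 0.05, 1 member was lower with THC in controls, beside 7% of all genes in either direction (3.55% higher and 3.45% lower). With THC in mutants 1 was higher and 1 lower, beside 5.73% (2.53% and 3.2%). Under vehicle 2 were higher and 3 lower in mutants, beside 17.8% (11.2% and 6.63%), and under THC 4 were higher and 1 lower, beside 8.98% (4.71% and 4.27%). For the interaction 2 were above and 0 below, beside 6.59% (2.16% and 4.42%). Averaged over genotypes 1 was higher and 1 lower with THC, beside 6.05% (2.96% and 3.09%). Averaged over treatments 2 were higher and 2 lower in mutants, beside 21.2% (12.2% and 9.01%), and 0 members were called in either averaged effect (0% and 0.00633% of all genes). DESeq2 and limma-voom also called 0 members in all 7 comparisons. A fold change is given below as log2 with its standard error (SE), and group values are the 3 libraries in the order 1, 2, 3.

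**Figure D2:**
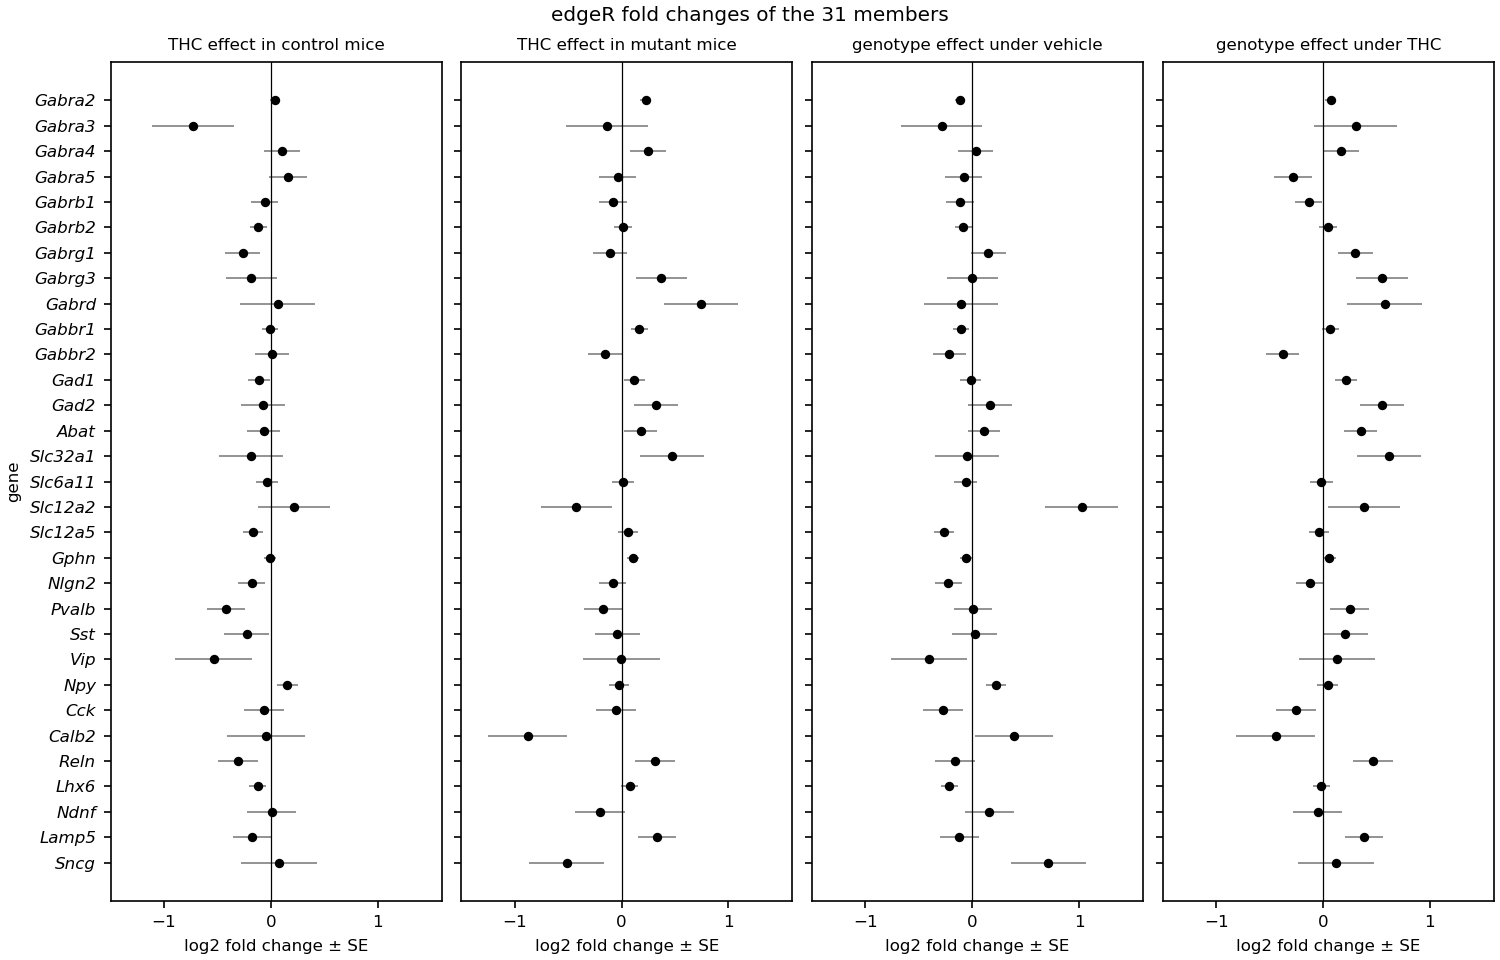
edgeR log2 fold change with SE for each of the 31 genes in the THC effect in each genotype and the genotype effect under each treatment, with 0 marked by a line. Most points lie near 0, and Slc12a2 under vehicle is the farthest to the right at 1.02 and Calb2 with THC in mutants the farthest to the left at -0.88.

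The genes of GABA synthesis and loading were highest in 1 library, mutant THC 3. Gad2, which makes GABA near synaptic vesicles, was at 123, 131 and 117 CPM in control vehicle, 110, 128 and 115 in control THC, 124, 136 and 157 in mutant vehicle, and 127, 144 and 247 in mutant THC. Slc32a1 was at 37.2, 46.1 and 37.3 CPM, then 33.1, 42.1 and 30.5, then 36.5, 39.2 and 41.1, and in mutant THC at 34.8, 38.8 and 88.7. The top value of each gene was that of mutant THC 3, and the groups of both genes overlapped in all 4 pairwise comparisons.

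Gad1, which makes most of the basal GABA, was at 353, 384 and 337 CPM in control vehicle, 320, 348 and 325 in control THC, 338, 367 and 358 in mutant vehicle, and 343, 355 and 456 in mutant THC. Abat was at 303, 303 and 286 CPM, then 288, 309 and 257, then 296, 319 and 348, and in mutant THC at 334, 284 and 472. In both genes mutant THC 3 was the highest of 12 libraries. For genotype under THC the log2 fold changes were 0.55 ± 0.21 for Gad2 and 0.35 ± 0.15 for Abat (SE, adjusted p = 0.552 each), and they were 0.20 ± 0.11 and 0.12 ± 0.10 without mutant THC 3. For THC in mutants Gad2 was at 0.32 ± 0.21 and, without that library, at -0.03 ± 0.11.

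Mutant THC 3 was the highest of the 12 libraries for 11 of the 31 members and for 15.9% of all genes, and the lowest for 8 members and for 18.5% of all genes. The largest excess was that of Gabrd, the delta subunit of tonic GABA-A receptors, at 105 CPM beside 31.96 to 45.6 CPM in the other 11 libraries, 2.74 times their median. The same ratio was 2.38 for Slc32a1, 1.95 for Gad2, 1.87 for Gabrg3, 1.71 for Reln, 1.69 for Lamp5, 1.59 for Gabra4, 1.56 for Abat, 1.31 for Gad1 and 1.15 for Gabbr1, and it was smallest for Gphn. On the low side Calb2 was at 0.459 times the median of the others, Vip at 0.545, Cck at 0.574, Gabbr2 at 0.584, Ndnf at 0.596, Gabra5 at 0.622, Gabrb1 at 0.736 and Slc6a11 at 0.824. Sst, Npy, Pvalb and Lhx6 lay within the range of the others. The library is the one with 5926 CPM of striatal genes, and the part of that RNA in these values was not tested beyond the fits without the library.

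**Figure D3:**
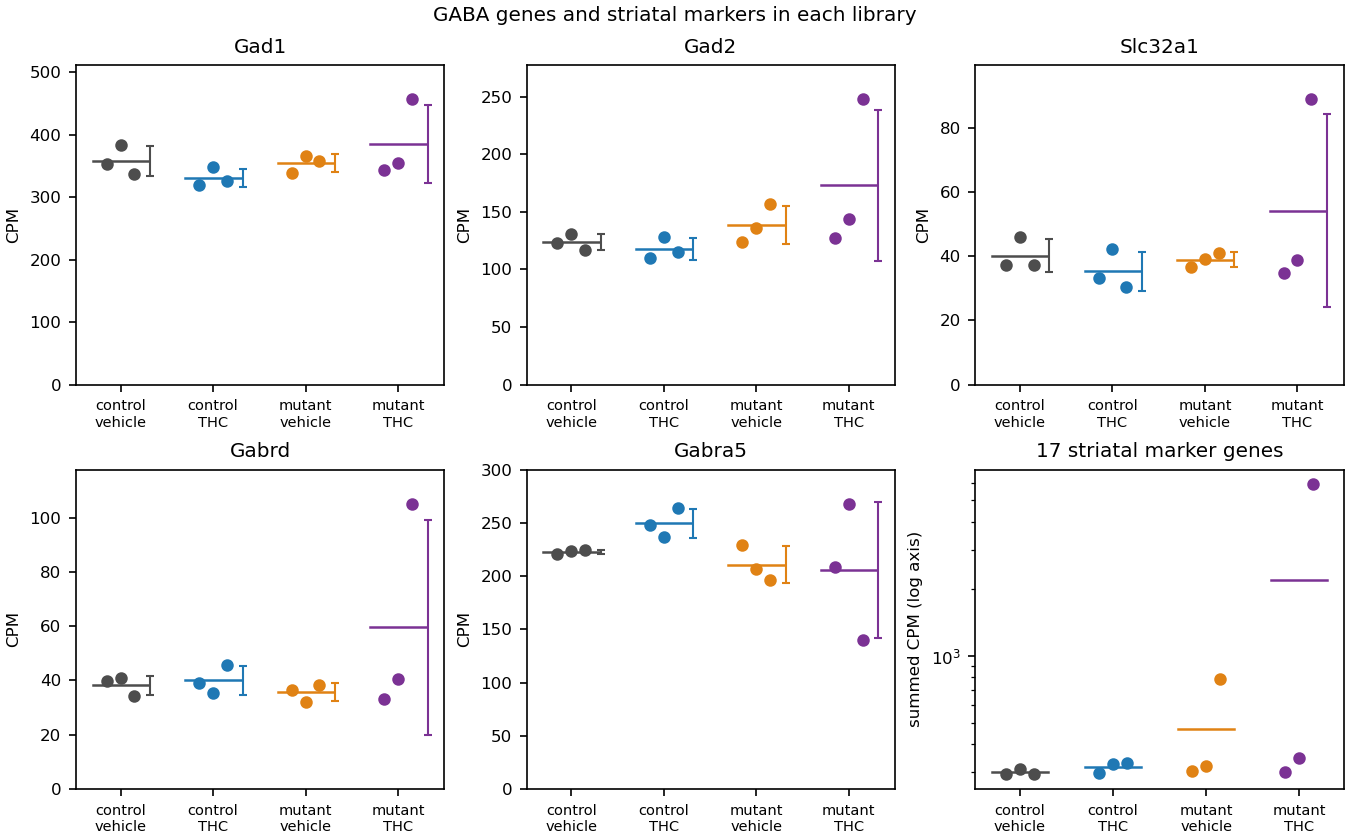
CPM of Gad1, Gad2, Slc32a1, Gabrd and Gabra5 in each library by group, with the mean as a line and the SD as a bar, and the summed CPM of 17 striatal genes on a log axis with the mean only. Mutant THC 3 is the single high point for Gad2 (247 CPM), Slc32a1 (88.7 CPM), Gabrd (105 CPM) and the striatal sum (5926 CPM), and the low point for Gabra5 (140 CPM).

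Among GABA-A receptor genes Gabra2, a synaptic alpha subunit gene, varied least within groups, with a pooled SD of 2.89% of the mean, and had the smallest p-value of the members. It was at 38.3, 36.2 and 39.8 CPM in control vehicle and at 39.97, 38.4 and 39.1 CPM in control THC. Mutant vehicle libraries gave 35.5, 34.2 and 35.9 CPM, and mutant THC libraries 40.6, 41.7 and 41.2 CPM. All mutant vehicle libraries were below all of control vehicle, and all mutant THC libraries were above those of both mutant vehicle and control THC.

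For THC in mutant mice the log2 fold change of Gabra2 was 0.23 ± 0.05 (SE, unadjusted p = 0.000802, adjusted p = 0.806), a ratio of 1.17. It was 0.23 ± 0.06 without mutant THC 3 and 0.20 to 0.24 over the 12 fits that each left out 1 library. The effect was 0.04 ± 0.05 in control mice, and the interaction was 0.19 ± 0.07 (unadjusted p = 0.0214, adjusted p = 0.711). Under vehicle the genotype effect was -0.12 ± 0.05 (adjusted p = 0.26). Gabra2 was the 1 member whose groups did not overlap for THC in mutants, where 8.47% of all genes did not overlap (4.07% higher and 4.4% lower).

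Gabra3, another alpha subunit gene, was at 59.1, 39.2 and 58.2 CPM in control vehicle, 49.6, 30.2 and 14.6 in control THC, 37.3, 49.8 and 41.02 in mutant vehicle, and 54.6, 29.1 and 33.1 in mutant THC. The value in control THC 3 was the lowest, and the groups overlapped. The log2 fold change with THC in controls was -0.73 ± 0.39 (SE, adjusted p = 0.74), and over the fits that left out 1 library it ran from -1.22 to -0.39, the latter without control THC 3. The summed level of 11 neocortical layer genes was 247, 193 and 271 CPM in control vehicle and 204, 161 and 109 in control THC. It was 189, 211 and 156 CPM in mutant vehicle and 264, 139 and 136 in mutant THC. With THC in controls 3 of these genes were above 0 and 8 below, beside 50.1% of all genes above 0. The part of neocortical RNA in the Gabra3 values was not tested.

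Gabra5 was at 221, 223 and 225 CPM in control vehicle and 249, 237 and 264 CPM in control THC, which did not overlap (0.16 ± 0.18, SE, adjusted p = 0.876). The mutant vehicle libraries gave 230, 207 and 196 CPM, and those of mutant THC gave 209, 268 and 140 CPM, overlapping. Gabra4 was at 128 to 164 CPM in 11 libraries and at 219.6 CPM in mutant THC 3. Gabrd gave 36.4, 31.96 and 38.4 CPM in mutant vehicle and 33.3, 40.5 and 105 CPM in mutant THC. Its log2 fold change with THC in mutants was 0.75 ± 0.35, or 0.05 ± 0.13 without mutant THC 3.

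Gabrg1, a gamma subunit gene of glia and some neurons, was at 34.1, 31.7 and 29.3 CPM in control vehicle and 28.3, 29.0 and 22.0 CPM in control THC. Mutant vehicle libraries gave 27.3, 34.4 and 43.8 CPM, and mutant THC libraries 36.8, 31.6 and 29.5 CPM. The 2 control groups did not overlap (-0.26 ± 0.16, SE, adjusted p = 0.765, or -0.15 ± 0.17 without control THC 3), nor did the 2 THC groups. Gabrg3 was at 4.51 to 7.63 CPM in 11 libraries and 12.5 CPM in mutant THC 3, and its genotype effect under THC was 0.55 ± 0.24 (adjusted p = 0.552), or 0.20 ± 0.18 without that library. Gabrb1 was at 56.5 to 72.0 CPM in those 11 and at 45.5 CPM in mutant THC 3, and Gabrb2 at 371 to 458 CPM over all 12.

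The GABA-B genes, which work as a pair, were compared as a ratio within each library, which cancels depth. The ratio of Gabbr1 to Gabbr2 counts was 3.76, 3.88 and 3.35 in control vehicle and 3.95, 3.65 and 3.27 in control THC. It was 3.91, 3.81 and 4.12 in mutant vehicle and 4.22, 4.09 and 7.33 in mutant THC. With both treatments weighted equally, mutants exceeded controls by 0.29 on the log2 scale (1.23-fold, exact permutation test within treatments, two-sided, 400 arrangements, p = 0.01, adjusted p = 0.03 over 6 tests). The extreme ratio was that of mutant THC 3, where Gabbr2 was at 106 CPM. Without that library the difference was 0.16 (adjusted p = 0.09). This ratio and that of Gad1 to Gad2 below were each refitted under 14 alternative settings. In 17 of these refits in all, the genotype call of the ratio was lost.

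Gabbr2 was at 184, 181 and 199.8 CPM in control vehicle, 177, 188 and 204 in control THC, 172, 169 and 145 in mutant vehicle, and 149.8, 182 and 106 in mutant THC. The vehicle groups did not overlap. Gabbr1 was at 690, 702 and 670 CPM, then 699, 685 and 665, then 672, 646 and 599, and in mutant THC at 632, 745 and 776. With THC in mutants Gabbr1 was at 0.17 ± 0.08 on the log2 scale (SE, adjusted p = 0.806), with overlapping groups. It was at 0.11 ± 0.08 without mutant THC 3 and at 0.26 ± 0.06 without mutant THC 1. For genotype under THC the log2 fold change of Gabbr2 was -0.38 ± 0.16 (SE, adjusted p = 0.552) and -0.19 ± 0.10 without mutant THC 3, or -0.57 ± 0.13 without mutant THC 2. Averaged over treatments it was -0.30 ± 0.11 (adjusted p = 0.183) and passed the threshold only without mutant THC 2 (-0.39 ± 0.09, adjusted p = 0.0426). In that fit 942 of all genes passed.

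The ratio of Gad1 to Gad2 was lower in mutants. It was 2.87, 2.93 and 2.88 in control vehicle, 2.91, 2.71 and 2.82 in control THC, 2.74, 2.71 and 2.29 in mutant vehicle, and 2.70, 2.46 and 1.85 in mutant THC. The difference was -0.23 on the log2 scale (exact permutation test, two-sided, p = 0.005, the smallest that 400 arrangements can give, adjusted p = 0.03 over the 6 tests). The 2 lowest ratios were those of mutant THC 3 and mutant vehicle 3, the libraries with the most striatal RNA. Without mutant THC 3 the difference was -0.15 (adjusted p = 0.06) and without both -0.11 (adjusted p = 0.06). Other settings lost the call too, as counted above for both ratios. Fewer arrangements are left without both libraries, which limits how small the adjusted p can be. The mutant ratios that remained were still below every control ratio of the same treatment. Neither ratio differed with THC past the threshold (adjusted p = 0.408 each).

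Of the members, Slc12a2 had the largest log2 fold change for genotype under vehicle. It was at 145, 147 and 135 CPM in control vehicle, 131, 249 and 116 in control THC, 210, 325 and 332 in mutant vehicle, and 296, 129 and 222 in mutant THC. All mutant vehicle libraries were above all control vehicle libraries. Under vehicle the log2 fold change was 1.02 ± 0.34 (SE, adjusted p = 0.179), a ratio of 2.04. It passed the threshold when only the 2 groups compared were fitted (adjusted p = 0.028), where 523 of all genes passed. Under THC it was 0.38 ± 0.34, with overlapping groups.

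NKCC1 is abundant in choroid plexus epithelium as well as in glia, and Slc12a2 stood high in the libraries with high Ttr. In the 6 libraries with Ttr above 1000 CPM, Slc12a2 was at 249 CPM in the 1 control library and at 210 to 332 CPM in the 5 mutant libraries. In the 6 libraries below it was at 116 to 147 CPM in the 5 control libraries and at 129 CPM in the 1 mutant library. Genotype within these sets was not tested. The summed level of 16 choroid plexus genes was 332 to 415 CPM in control vehicle, 334 to 8931 in control THC, 6158 to 17000 in mutant vehicle and 337 to 10530 in mutant THC.

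Slc12a5 was at 429, 449 and 446 CPM in control vehicle, 403, 390 and 385 in control THC, 374, 409 and 320 in mutant vehicle, and 336, 399 and 416 in mutant THC. Control vehicle was above every library of the other 3 groups. The log2 fold change was -0.17 ± 0.09 with THC in controls (SE, adjusted p = 0.745) and -0.26 ± 0.09 for genotype under vehicle (adjusted p = 0.193), the latter at -0.17 ± 0.09 without mutant vehicle 3. These 2 comparisons share the control vehicle libraries. The ratio of Slc12a2 to Slc12a5 was 0.338, 0.327 and 0.301 in control vehicle, 0.324, 0.638 and 0.300 in control THC, 0.562, 0.795 and 1.04 in mutant vehicle, and 0.879, 0.324 and 0.533 in mutant THC. With both treatments weighted equally, mutants exceeded controls by 0.85 on the log2 scale (exact permutation test, two-sided, p = 0.045, adjusted p = 0.09 over the 6 tests), which did not pass. It passed without mutant THC 2 (adjusted p = 0.03), the 1 mutant library with Ttr below 1000 CPM. The 5 mutant libraries left all had Ttr above 1000 CPM, as did 1 control library. The part of choroid plexus RNA in that difference was not tested.

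**Figure D4:**
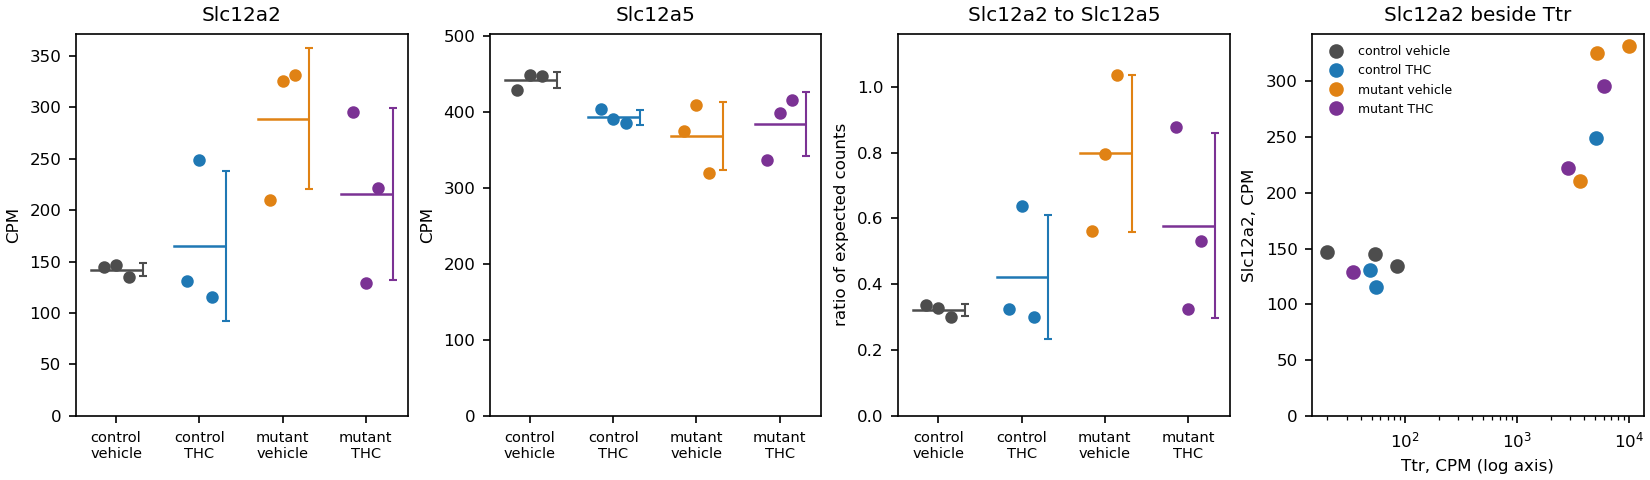
CPM of Slc12a2 and Slc12a5 and the ratio of their expected counts in each library by group, with mean line and SD bar, and Slc12a2 against Ttr (log axis) in the 12 libraries. The 6 libraries with Ttr above 1000 CPM have Slc12a2 at 210 CPM or more, and the other 6 at 147 CPM or less, in both genotypes.

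The remaining genes of uptake and of the postsynapse had overlapping groups in all 4 pairwise comparisons. Slc6a11 was at 70.0 to 92.5 CPM and Gphn at 100.3 to 119 CPM over the 12 libraries, and Nlgn2 at 52.3 to 80.9 CPM. Group means of Gphn were 108 ± 2.00, 107 ± 3.49, 104 ± 3.91 and 112 ± 7.90 CPM (SD, n = 3) in control vehicle, control THC, mutant vehicle and mutant THC. Astrocyte markers, 10 genes in all, summed to 4875 to 6171 CPM, lowest in mutant THC 3, where Slc6a11 was lowest too.

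Of the 11 interneuron markers 3 were above 0 and 8 below for THC in controls, with a median log2 fold change of -0.12 where that of all genes was 0.00. An unadjusted p under 0.05 was found for 1 of them, beside 7% of all genes. Control THC 3 was the lowest of the 12 libraries for Pvalb, Sst, Lamp5 and Sncg. For THC in mutants 3 were above and 8 below, for genotype under vehicle 6 and 5, and for genotype under THC 7 and 4. The shares of all genes above 0 were 50.1% for THC in controls and 47.5% for THC in mutants. They were 48.9% for genotype under vehicle and 51.5% for genotype under THC. Pvalb was at 42.0, 35.4 and 32.7 CPM in control vehicle, 34.6, 26.6 and 21.2 in control THC, 40.4, 36.6 and 33.3 in mutant vehicle, and 39.1, 30.98 and 27.8 in mutant THC. It was the member with the smallest p for THC in controls (-0.42 ± 0.18, SE, adjusted p = 0.701), the groups overlapped, and without control THC 3 it was at -0.27 ± 0.17. Sst was at 95.7, 82.2 and 91.1 CPM, then 100.2, 82.0 and 48.1, then 97.1, 91.5 and 84.5, and in mutant THC at 101, 78.3 and 86.4.

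Vip, a peptide of interneurons that contact other interneurons, was at 18.2, 11.9 and 17.6 CPM in control vehicle, 15.02, 10.9 and 6.95 in control THC, 12.6, 12.7 and 10.8 in mutant vehicle, and 19.1, 10.1 and 6.84 in mutant THC. Its lowest values were in mutant THC 3 and control THC 3, where the neocortical layer sums were lowest too (136 and 109 CPM). The part of neocortical RNA in the Vip values was not tested. Npy was at 32.2, 33.1 and 26.7 CPM in control vehicle and 38.8, 34.5 and 34.1 CPM in mutant vehicle, which did not overlap (0.22 ± 0.10, SE, adjusted p = 0.263, or 0.13 ± 0.09 without control vehicle 3). Lhx6 was at 10.6, 10.6 and 11.9 CPM in control vehicle and 9.56, 9.83 and 9.08 CPM in mutant vehicle, which did not overlap either (-0.21 ± 0.08, adjusted p = 0.203). The 6 members whose vehicle groups did not overlap were these 2, Gabbr2, Gabra2, Slc12a2 and Slc12a5, beside 28% of all genes (15.3% higher and 12.7% lower).

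Reln, the extracellular guide of Cajal-Retzius cells and some interneurons, was at 187, 166 and 191 CPM in control vehicle and 145, 140 and 154 CPM in control THC, which did not overlap (-0.31 ± 0.19, SE, adjusted p = 0.764). Mutant vehicle libraries gave 166, 170 and 151 CPM, and mutant THC libraries 174, 149 and 284 CPM, the last in mutant THC 3. Its interaction was 0.63 ± 0.27 (adjusted p = 0.736), or 0.30 ± 0.12 without mutant THC 3, and its genotype effect under THC was 0.47 ± 0.19, or 0.14 ± 0.09 without mutant THC 3. For THC in controls 4 members did not overlap, Reln, Slc12a5 and Gabrg1 lower and Gabra5 higher with THC, beside 16.4% of all genes (8.3% higher and 8.07% lower). For genotype under THC 2 did not, Gabra2 and Gabrg1, both higher in mutants, beside 10.5% (4.83% higher and 5.7% lower).

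Calb2, the calretinin gene of interneurons and mossy cells, was at 25.0, 17.8 and 23.0 CPM in control vehicle, 21.4, 25.3 and 16.99 in control THC, 16.9, 26.0 and 43.4 in mutant vehicle, and 24.2, 12.1 and 10.6 in mutant THC. With THC in mutants it was at -0.88 ± 0.37 (SE, adjusted p = 0.806), with overlapping groups. Its highest value was in mutant vehicle 3, the library with 783 CPM of striatal genes, and its lowest in mutant THC 3. The summed level of 9 thalamus genes was also highest in mutant vehicle 3, at 217 CPM, and lowest in mutant THC 3, at 95.5 CPM. The part of neighbouring tissue in the Calb2 values was not tested. The fold change of Calb2 was -0.45 ± 0.34 without mutant vehicle 3, -1.34 ± 0.35 without mutant THC 1 and -0.24 ± 0.34 without both libraries with striatal genes. Cck was at 216 to 271 CPM in 10 libraries, at 172 CPM in mutant vehicle 3 and at 138 CPM in mutant THC 3. Ndnf and Sncg, markers of neurogliaform cells and of some Cck cells, were at 17.7 to 38.5 and 1.23 to 4.24 CPM.

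Lamp5, another neurogliaform marker, was at 35.7, 40.6 and 32.7 CPM in control vehicle, 32.2, 35.6 and 28.96 in control THC, 33.3, 37.1 and 29.98 in mutant vehicle, and 32.2, 37.9 and 56.1 in mutant THC. Its top value was again that of mutant THC 3, and the groups overlapped. With THC in mutants its log2 fold change was 0.33 ± 0.18 (SE, adjusted p = 0.806), and it was 0.07 ± 0.13 without mutant THC 3 and -0.001 ± 0.13 without both libraries with striatal genes. Its interaction was 0.51 ± 0.25 (adjusted p = 0.761), or 0.24 ± 0.17 without mutant THC 3 and 0.17 ± 0.17 without both. The other members among the smallest interaction p-values were Lhx6 at 0.20 ± 0.11 (adjusted p = 0.766) and Slc12a5 at 0.23 ± 0.13 (adjusted p = 0.768), the latter at 0.14 ± 0.12 without mutant vehicle 3.

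**Figure D5:**
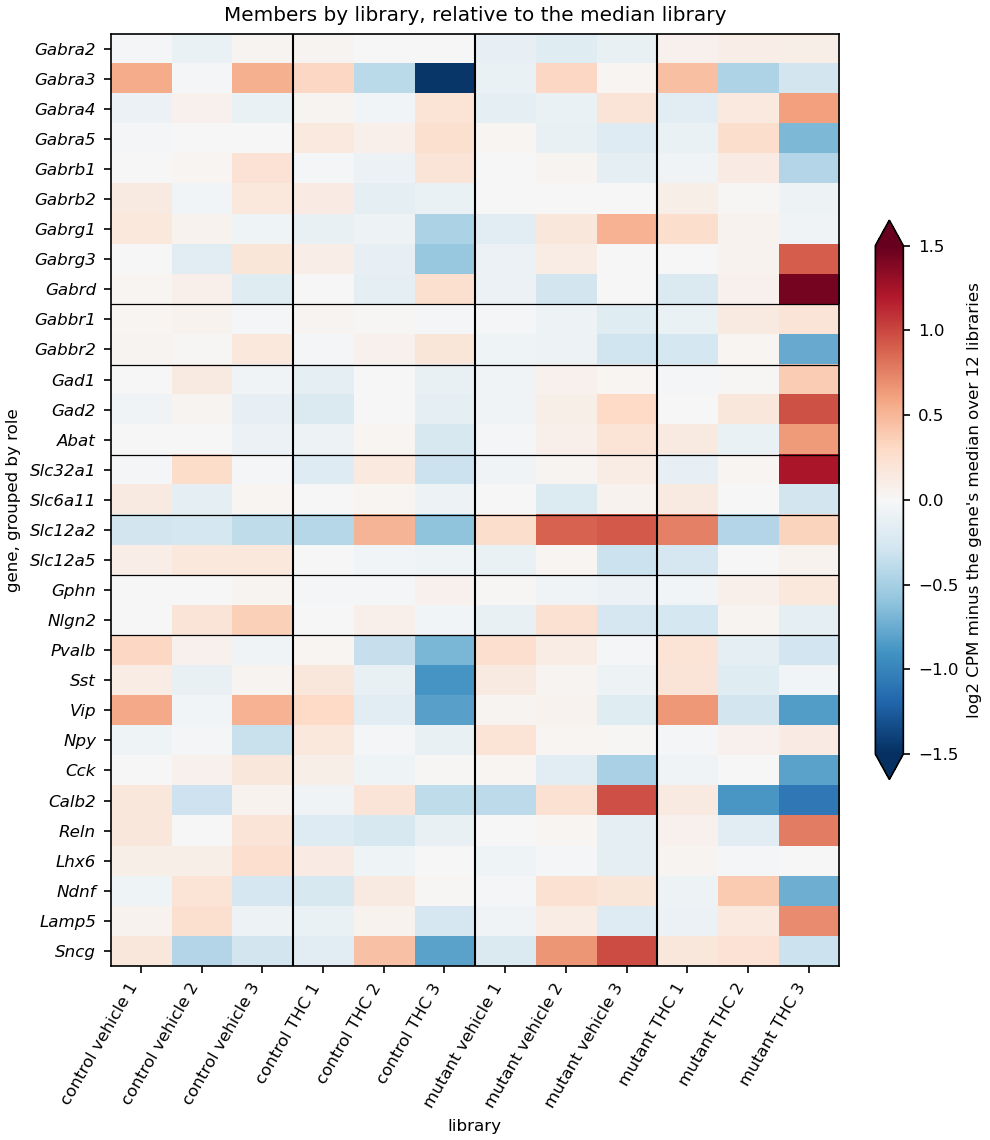
Log2 CPM of each of the 31 genes in each of the 12 libraries minus the gene's median over the 12, grouped by role, with groups of libraries divided by lines. Mutant THC 3 and control THC 3 carry the darkest cells, and Slc12a2 is above its median in control THC 2 and in 5 mutant libraries.

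Control THC 3 was the lowest of the 12 libraries for 10 of the 31 members, among them Gabra3, Gabrg1, Gabrg3, Abat, Slc32a1, Slc12a2, Pvalb, Sst, Lamp5 and Sncg, where 13.3% of all genes were lowest in it. The summed granule cell genes were highest there, at 957 CPM beside 382 to 733 in the others, and the CA3 genes too, at 497 CPM. The CA1 genes, at 423 CPM, and 11 neocortical layer genes, at 109 CPM, were lowest there. Whether subfield content accounts for the member values in this library was not tested. Without it the median log2 fold change of the members for genotype under THC was 0.02 and not 0.12.

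By direction, 9 of 31 members were above 0 for THC in controls, with their median at -0.07 (log2), where 50.1% of all genes were above 0 and had a median of 0.00. For THC in mutants 16 members were above 0 (median 0.01, beside 47.5% of all genes). For genotype under vehicle 12 were above 0 (median -0.06, beside 48.9%), and for genotype under THC 21 were (median 0.12, beside 51.5%). For the interaction 23 of 31 were above 0 with a median of 0.18, where 51.3% of all genes were above 0 with a median of 0.005. Without mutant THC 3 the members' median was 0.11, with 25 members above 0. For the averaged effects 14 members were above 0 with THC (median -0.02, beside 49.2% of all genes) and 18 in mutants (median 0.055, beside 50.7%).

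Of 45 further genes of GABA signalling, 41 were tested, and of 35 further interneuron genes all 35, and none was called in the 5 comparisons (edgeR, smallest adjusted p = 0.156 and 0.161, both under vehicle). At an unadjusted p under 0.05 for genotype under vehicle, 8 of the GABA genes were higher and 3 lower, beside 11.2% and 6.63% of all genes. In the same comparison 1 interneuron gene was higher and 2 lower. For THC in controls 1 GABA gene was higher and 1 lower, and 4 interneuron genes were lower and 0 higher, beside 3.55% higher and 3.45% lower of all genes. In that comparison 9 of the 35 interneuron genes were above 0 and 26 below (median -0.115, log2), where 50.1% of all genes were above 0. The groups of 1 were separate and higher and those of 7 separate and lower, beside 8.3% and 8.07% of all genes. For the interaction 17 of the 41 GABA genes were above 0 and 24 below (median -0.035), with 1 above and 5 below at an unadjusted p under 0.05. Of the interneuron genes 23 were above 0 and 12 below (median 0.15), with 3 above and 1 below. The shares of all genes for the interaction were 2.16% above and 4.42% below at that p, and 51.3% were above 0.

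Among these further GABA genes, Gabra6, an alpha subunit gene of cerebellar granule cells, gave 1.68, 0.675 and 0.482 CPM in the mutant vehicle libraries and 0 to 0.456 CPM in the other 9 libraries. Its interaction was -4.52 ± 1.29 (SE, adjusted p = 0.664). Mutant vehicle 1 also had the highest Cbln3 and Fat2, cerebellar granule cell genes, at 3.63 and 9.06 CPM, with 0.550 to 1.501 and 0.542 to 2.95 CPM in the other 11 libraries. Slc12a7, a chloride exporter gene, was at 4.16, 4.49 and 5.14 CPM in control vehicle, 7.14, 8.17 and 6.87 in control THC, 8.72, 8.73 and 8.12 in mutant vehicle, and 10.1, 4.75 and 5.39 in mutant THC. Control vehicle lay below both control THC (0.69 ± 0.24, adjusted p = 0.70) and mutant vehicle (0.89 ± 0.24, adjusted p = 0.156), which share those control libraries, and its interaction was -1.02 ± 0.33. The summed level of 11 genes of meninges and mural cells was 212 to 241 CPM in control vehicle, 288 to 319 in control THC, 346 to 400 in mutant vehicle and 205 to 360 in mutant THC. It was highest in the same groups as Slc12a7, and its part in that result was not tested.

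Hap1, which carries GABA-A receptors to the membrane, gave 92.9 to 94.2 CPM in control vehicle and 66.6 to 77.8 CPM in mutant vehicle (-0.34 ± 0.10, adjusted p = 0.157). It was at 74.4 to 94.0 CPM in control THC and at 63.8 to 73.8 CPM in mutant THC (-0.31 ± 0.10). Mdga2, which binds neuroligins, was lower with THC in controls (-0.22 ± 0.09), higher in mutants than controls under THC (0.29 ± 0.09) and at 0.33 ± 0.13 in the interaction. The other named GABA genes were Slc6a13 with THC in controls (0.64 ± 0.33), Lhfpl4 and Gabarapl1 with THC in mutants (0.29 ± 0.10 and 0.14 ± 0.06) and Kctd8 for genotype under THC (0.86 ± 0.36), the last at 19.7 CPM in mutant THC 3 and at most 9.44 elsewhere.

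Among the further interneuron genes, Sox6, a transcription factor of Sst and Pvalb cells, was at 28.6, 27.1 and 29.5 CPM in control vehicle and at 23.2, 24.7 and 22.1 CPM in control THC (-0.28 ± 0.08, SE, adjusted p = 0.70). In mutants it was at 25.4, 29.96 and 28.6 CPM with vehicle and 31.99, 27.2 and 27.8 CPM with THC, above all control THC libraries (0.31 ± 0.08, adjusted p = 0.552), and the interaction was 0.33 ± 0.12. Nxph1 and Satb1 were at -0.34 ± 0.11 and -0.69 ± 0.26 with THC in controls, and Nxph1 at 0.34 ± 0.15 in the interaction. Satb1 was lowest in mutant THC 3 and control THC 3 (42.6 and 44.9 CPM), the libraries with the lowest neocortical layer sums. The part of neocortical RNA in the Satb1 values was not tested. Maf, another transcription factor of these cells that microglia and endothelium also express, gave 13.2 to 14.1 CPM in control vehicle, 14.9 to 15.4 in control THC, 16.6 to 19.6 in mutant vehicle and 11.5 to 16.0 in mutant THC. Its fold change was 0.39 ± 0.12 for genotype under vehicle, -0.44 ± 0.12 for THC in mutants and -0.59 ± 0.16 in the interaction (adjusted p = 0.664).

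Nos1 and Tac2 were at -0.43 ± 0.14 and -0.55 ± 0.23 for genotype under vehicle. Dlx6, Dlx6os1 and Sp9, genes of forebrain GABAergic lineages that include striatal neurons, were named for THC in mutants or genotype under THC. Dlx6 was at 9.19 CPM in mutant THC 3 and at most 2.14 CPM in the other 11 libraries, Sp9 at 7.36 and at most 2.81 CPM, and Dlx6os1 at 50.8 and at most 34.8 CPM. The striatal sum was highest in the same library.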

How the data were processed

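The deposited table holds RSEM expected counts per gene on RefSeq transcripts of mm10, per the file headers. Per the submitters' processing notes, which give tools without roles, the authors used RSEM 1.2.21, Bowtie2 2.2.2, edgeR 3.10.2, CASAVA 1.8.4 and FastQC. Symbols were found for 23018 rows in RefSeq (GRCm38.p6), and GENCODE added 129. All 12 columns matched a sample. Expected counts were rounded, filtered with filterByExpr and scaled by TMM (factors 0.99 to 1.01), and 4 group means were fitted over all 12 libraries with edgeR 4.0.16 (quasi-likelihood, robust, R 4.3.3), with 8 residual degrees of freedom. SE is the log2 fold change over the root of F. Alternatives used DESeq2 1.42.0, limma-voom (limma 3.58.1), other scalings, no filter, the compared groups alone, and omission of libraries. CPM uses unrounded counts. Ratios were tested by exact permutation. The code was tested on simulated data.

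The members, lists and tests were chosen with earlier results of these data known. By rule, the 5 members with the smallest p in each comparison and 3 genes of each further list were named, besides members whose groups do not overlap. Libraries of a group are separate samples in the labels, but separate animals are not stated, so each p-value reflects only how far libraries differ, which may be technical. The labels give no numbers shared between groups. Depth was 33165903 to 41389957 counts per library.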

Additional observations from a re-analysis of the deposited data

How the results depend on the processing

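No paired analysis was possible because the labels give no replicate numbers that recur between groups. The count of members past the threshold was 0 in all 7 comparisons by edgeR, DESeq2 and limma-voom, under every scaling and without the filter. It was 1 when only the vehicle groups were fitted (Slc12a2) and 1 for the averaged genotype effect without mutant THC 2 (Gabbr2). Counts over all genes depended far more on the tool. Genotype under vehicle gave 1 gene by edgeR, 788 by DESeq2, 0 by limma-voom and 523 with only the groups compared. The averaged genotype effect gave 1 by edgeR, 785 by DESeq2 and 942 without mutant THC 2. DESeq2 called 12 genes for THC in controls, 3 for THC in mutants, 7 for genotype under THC and 34 for the interaction. The cause was not tested.

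Over the omissions of 1 library, the median log2 fold change of the members ran from -0.133 to -0.046 for THC in controls, 0.02 to 0.133 for genotype under THC, 0.114 to 0.227 for the interaction and 0.006 to 0.098 for the averaged genotype effect. Without both libraries with striatal genes, an alternative chosen after seeing the data, these medians were 0.071 for genotype under THC, 0.098 for the interaction and -0.003 for the averaged genotype effect, and with limma-voom that of genotype under THC was 0.073. In the same fit Lamp5 with THC in mutants was at -0.001 and not 0.333. The genotype difference in the log2 ratio of Gad1 to Gad2 ran from -0.286 to -0.148, that of Gabbr1 to Gabbr2 from 0.156 to 0.367 and that of Slc12a2 to Slc12a5 from 0.668 to 1.028, and the THC difference of the last from -0.298 to 0.062. An adjusted p could still pass with 1 library omitted, as that of Slc12a2 to Slc12a5 did without mutant THC 2. The genotype calls of the first 2 ratios were lost in 17 of their alternative settings, with 14 settings for each ratio. With both striatal libraries left out, the fewer arrangements limit the adjusted p. Without both striatal libraries the first 2 were -0.106 (adjusted p = 0.06) and 0.141 (adjusted p = 0.167). Gabrb2 in mutant vehicle was at 412.4 CPM (SD 2.06) with unscaled library totals and at 410.5 CPM (SD 0.587) with TMM scaling.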
